A study of Mus musculus with 6 samples.

Results

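A set of 10 of the 41388 genes counted is described here, namely the ligand genes *Tgfb1*, *Tgfb2* and *Tgfb3*, the receptor genes *Tgfbr1*, *Tgfbr2* and *Tgfbr3*, the signal transducer *Smad3*, the feedback inhibitor *Smad7*, the latent TGF-beta binding protein family gene *Ltbp2* and the TGF-beta induced matrix gene *Tgfbi*. They were chosen by symbol, and each symbol matched 1 gene. RNA-Seq was performed on liver RNA of male C57BL/6 mice, with 3 pools per genotype. *Mttp-IKO* mice carried floxed *Mttp* alleles (Mttpf/f) and a tamoxifen-inducible Cre under the Villin promoter, and had received tamoxifen at 50 µg/g body weight per day for 5 days. Control mice, which the sample labels call wild type, are described in the series as vehicle-injected Mttpf/f Villin Cre animals and in the article as littermates. All mice were 12 to 16 weeks old at the start of the diet, 3 weeks after injection, and were fed the methionine/choline-deficient (MCD) diet for 3 weeks, with livers taken after a fast stated as 4 h. All mice of both genotypes thus received the MCD diet, and no chow-fed liver is among these 6 pools. The article gives RNA from 3 to 4 mice per pool and the series text 12 livers for the pools, so the livers in each pool are not settled. Pooling reduces variation from mouse to mouse without removing it, and the p-values measure the spread between pools and not that between single mice.

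TGF-beta is the best studied profibrogenic cytokine of the liver. It is secreted in a latent complex, which latent TGF-beta binding proteins tether to microfibrils and which integrins and proteases can open. The released ligand assembles the type II receptor TGFBR2 with the type I receptor TGFBR1, while the co-receptor betaglycan, encoded by *Tgfbr3*, presents ligand. The active complex phosphorylates SMAD2 and SMAD3, which enter the nucleus with SMAD4 and raise matrix genes in hepatic stellate cells, and also raise the gene of SMAD7, which blocks the receptor.

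Villin promoter activity is found in intestinal epithelium, so the deletion was aimed at the intestine and not at the organ sequenced. Hepatic *Mttp* stood at 90.4, 186 and 175 CPM in control pools 1, 2 and 3 and at 145, 129 and 161 CPM in *Mttp-IKO* pools, a level that does not test the intestinal deletion. CPM are read counts relative to the library total, scaled here between pools by TMM. The pools held 25271585 to 36238734 reads on genes, and a count of 0 allows up to 3 reads, or 0.0828 to 0.119 CPM, counting error only. Albumin (*Alb*), a defining hepatocyte gene, stood between 40131 and 132236 CPM in the pools. Control pool 2 stood apart in the summed level of 8 striated muscle genes, at 1904 CPM, while pools 1 and 3 of that group had 244 and 6.497 CPM and the *Mttp-IKO* pools between 12.96 and 17.9 CPM. Small RNA genes took 0.289% of the reads of *Mttp-IKO* pool 3 and between 1.92 and 3.51% of those of each other library. Results were therefore also computed without these pools.

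Sequences are shown for the ligand gene that made up most of the ligand mRNA and for the genes that passed the test. The *Tgfb1* primer pair used for quantitative PCR in the article spans a short product. This product lies in exon 2 of the 7 exons of the transcript matched, wholly within the coding sequence, at chr7:25692452-25692519 on the plus strand (GRCm38, GENCODE M21). The 68 nt product matched 3 transcripts of this gene and no other gene. Capitals mark the 16 and 26 bases covered by the primers.
Tgfb1 product: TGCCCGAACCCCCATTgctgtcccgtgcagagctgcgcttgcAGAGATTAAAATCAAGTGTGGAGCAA

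SMAD3 and SMAD4 bind the short Smad box CAGAC, which reads GTCTG on the opposite strand. Promoter windows of 250 bases before to 50 bases after the RefSeq start sites (GRCm38.p6) were available for 7 of the 10 genes, all but *Tgfb3*, *Tgfbr3* and *Smad7*. Only the 250 bases before the start site were searched in each window. In these bases the box was found for 5 of these 7 genes (*Ltbp2*, *Tgfb2*, *Tgfbi*, *Tgfbr1* and *Tgfbr2*). Counted by window this was 5 of their 8 windows, against 42.2% of all 32851 windows, so the box is a common run of letters. The longer palindrome GTCTAGAC was in none of the 7 and in 0.167% of all windows, and the AP-1 site TGAGTCA, searched on both strands, was in none of the 7 and in 4.46% of all. A match is a run of letters and not a bound site. The stretches before the start sites of *Ltbp2* and *Tgfbi*, which passed the test, and of *Tgfb1* are printed 5′ to 3′ on the strand of the gene without any base that lies in an exon of the gene, with each Smad box in capitals.
Ltbp2, chr12:84876533-84876741, minus strand: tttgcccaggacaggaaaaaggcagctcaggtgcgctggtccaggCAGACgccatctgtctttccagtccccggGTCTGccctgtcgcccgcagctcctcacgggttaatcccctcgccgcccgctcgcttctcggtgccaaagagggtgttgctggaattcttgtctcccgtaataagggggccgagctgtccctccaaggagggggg
Tgfbi, chr13:56609336-56609522, plus strand: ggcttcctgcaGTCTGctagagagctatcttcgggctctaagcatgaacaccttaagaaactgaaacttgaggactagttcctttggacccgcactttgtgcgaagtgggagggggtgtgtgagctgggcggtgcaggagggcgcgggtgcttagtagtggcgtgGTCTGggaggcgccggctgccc
Tgfb1, chr7:25686752-25687001, plus strand: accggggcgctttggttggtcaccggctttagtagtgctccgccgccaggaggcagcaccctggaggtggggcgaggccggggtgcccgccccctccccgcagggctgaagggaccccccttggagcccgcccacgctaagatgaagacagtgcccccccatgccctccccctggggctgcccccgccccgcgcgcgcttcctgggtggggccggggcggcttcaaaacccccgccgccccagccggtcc
The boxes of *Ltbp2* begin 205 and 176 bases before its RefSeq start site and those of *Tgfbi* 239 and 85 bases before, whereas the 250 bases before *Tgfb1* hold none. The 41 bases next to the RefSeq start site of *Ltbp2* and the 63 next to that of *Tgfbi* are not printed, so the printed stretches end before these sites.

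The matrix and target genes of the set were lower in *Mttp-IKO* livers, *Ltbp2* by 3.95-fold and *Tgfbi* by 1.84-fold. The ligand genes *Tgfb1* and *Tgfb2* were at lower levels in every *Mttp-IKO* pool than in any control pool without passing the test, and the receptor genes, *Smad3* and *Smad7* had overlapping pools. All 10 genes were tested, and 2 passed an adjusted p of 0.05 by edgeR's quasi-likelihood test with Benjamini-Hochberg adjustment over 17287 genes, both lower in *Mttp-IKO*, against 4.01% of all genes tested (3.09% lower and 0.92% higher). The log2 fold changes of 9 of the 10 were negative, with a median of -0.28 against 0.0057 over all genes tested. That median was -0.55 without *Mttp-IKO* pool 3 and -0.46 under total counts, where the median of all genes shifted by -0.18. The pools did not overlap for 4 of the 10 genes, all lower in *Mttp-IKO*, against 31% of all genes tested (16.5% lower). No ligand, receptor or Smad of the set passed, while 4 of the 10 had an unadjusted p under 0.05, against 23% of all genes.

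**Figure D1:**
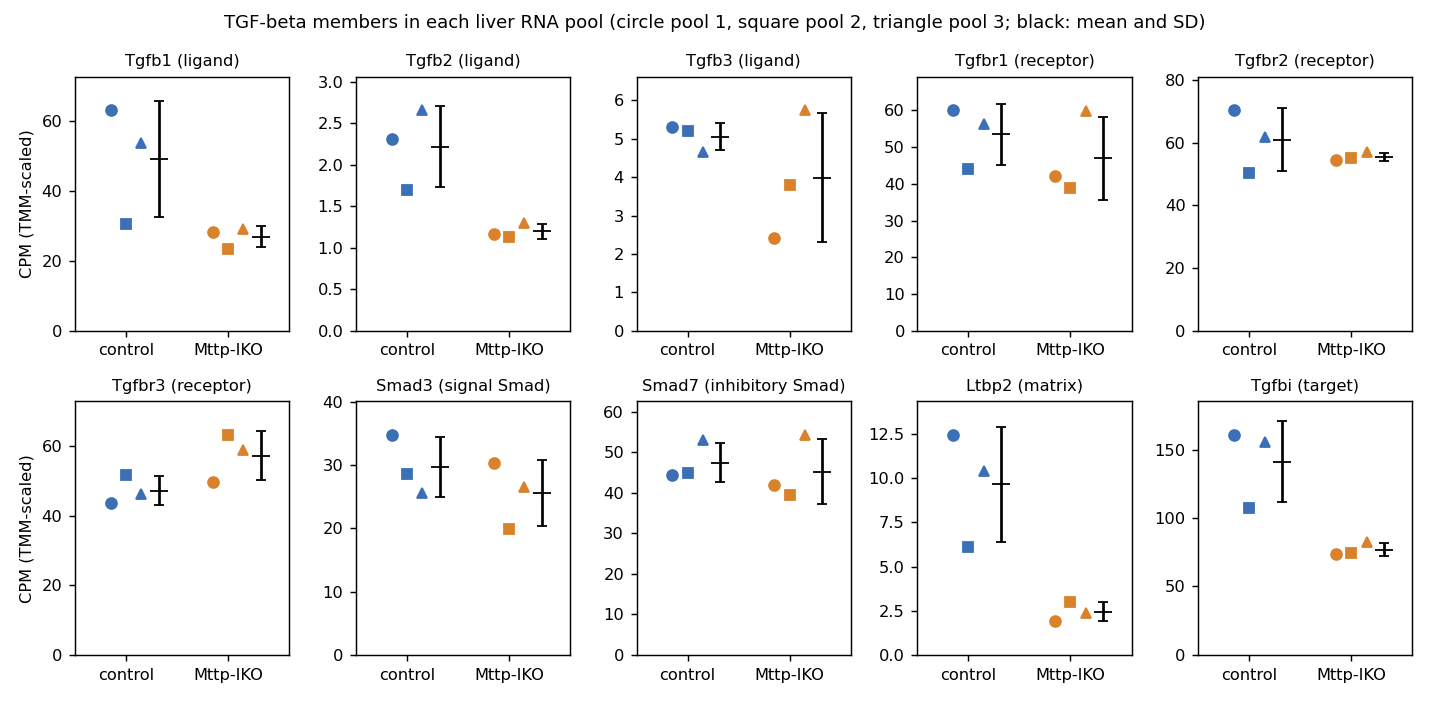
Level of each of the 10 genes in each liver RNA pool, in TMM-scaled CPM (vertical axis, from 0, with its own range in each panel); circles, squares and triangles are pools 1, 2 and 3 of each genotype, and black bars are mean ± SD of 3 pools. *Tgfb1*, *Tgfb2*, *Ltbp2* and *Tgfbi* show no overlap between genotypes, and the other 6 genes overlap.

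**Figure D2:**
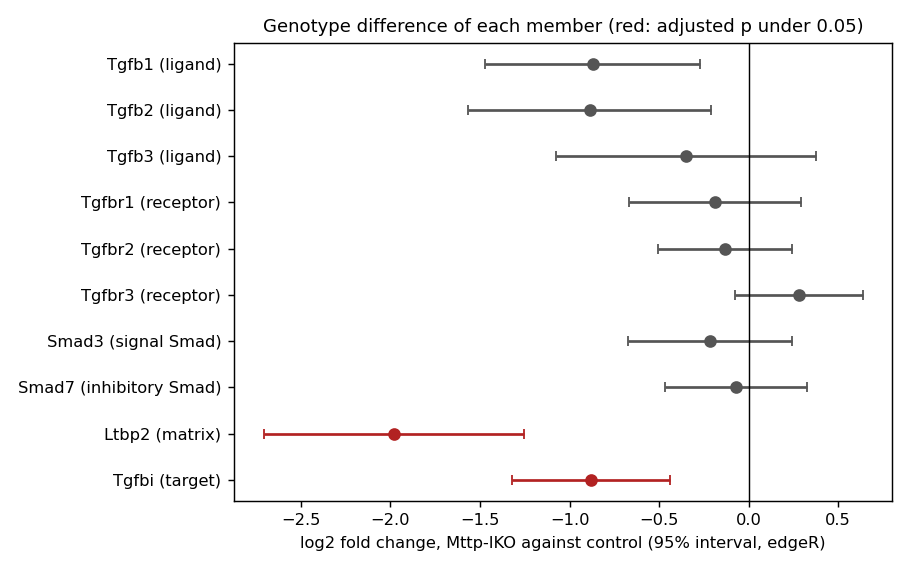
Log2 fold change of each gene, *Mttp-IKO* against control, with its 95% interval from the edgeR fit (horizontal axis); red marks an adjusted p under 0.05. The intervals of *Tgfb1*, *Tgfb2*, *Ltbp2* and *Tgfbi* lie below 0, and those of the other 6 genes include 0.

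*Tgfb1* (ENSMUSG00000002603, chromosome 7, 25687002 to 25705077, GRCm38) encodes the ligand most closely tied to liver fibrosis. It stood at 63.0, 30.6 and 53.5 CPM in control pools 1, 2 and 3 and at 28.0, 23.3 and 29.1 CPM in *Mttp-IKO* pools 1, 2 and 3. The genotypes did not overlap, but control pool 2 lay just above the highest *Mttp-IKO* pool. The log2 fold change was -0.87 (standard error 0.26, 95% interval -1.47 to -0.27, adjusted p = 0.103, edgeR). Leaving out control pool 2, the pool with the most muscle RNA, gave -1.14 with an adjusted p of 0.0210 (edgeR), and the DESeq2 Wald test on all pools gave -0.86 with an adjusted p of 0.0377, whereas leaving out control pool 1 gave -0.67 with an adjusted p of 0.318 (edgeR). The call for *Tgfb1* thus changed with 1 control pool and with the tool.

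*Tgfb2* (ENSMUSG00000039239, chromosome 1, 186623186 to 186705992) was read at 93, 61 and 85 counts in control pools and 36, 33 and 31 counts in *Mttp-IKO* pools, which are 2.31, 1.69 and 2.65 CPM and 1.16, 1.13 and 1.30 CPM. Every *Mttp-IKO* pool was below every control pool, and the *Mttp-IKO* pools were close to each other. This gave a log2 fold change of -0.89 (standard error 0.29, 95% interval -1.56 to -0.21, adjusted p = 0.129, edgeR). No alternative brought *Tgfb2* past the threshold. In the annotation 127 of its exon bases, 2.69%, are shared with the antisense gene Gm29491, and whether counting used the strand is not stated.

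*Tgfb3* (ENSMUSG00000021253) was at 5.31, 5.21 and 4.65 CPM in control pools and at 2.42, 3.81 and 5.75 CPM in *Mttp-IKO* pools. *Mttp-IKO* pool 3 exceeded every control pool and pools 1 and 2 lay below all of them. Its log2 fold change was -0.35 (95% interval -1.07 to 0.38, adjusted p = 0.547, edgeR), and without *Mttp-IKO* pool 3, the pool low in small RNA reads, it was -0.70, whereas without *Mttp-IKO* pool 1 it was -0.09.

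*Tgfb1* made up most of the ligand mRNA per length of gene. In RPKM (CPM per kilobase of gene length) the 3 ligand genes summed to 21.1 ± 6.58 in control and 11.9 ± 1.44 in *Mttp-IKO* livers (SD, n = 3 pools). The share of *Tgfb1* in this sum was 90.0 ± 3.26% in control and 88.1 ± 3.49% in *Mttp-IKO* livers. *Tgfb3* accounted for 7.67 ± 2.99% and 9.81 ± 3.46%, and *Tgfb2* for 2.29 ± 0.40% and 2.14 ± 0.13%. The lowest control sum, 13.9 RPKM in pool 2, and the highest *Mttp-IKO* sum, 13.4 RPKM in pool 3, were close to each other, and the makeup of the sum overlapped between genotypes for all 3 ligands.

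The receptor genes did not pass the test. *Tgfbr1* (ENSMUSG00000007613), the type I receptor kinase, stood at 60.1, 44.1 and 56.3 CPM in control and 42.0, 39.0 and 59.9 CPM in *Mttp-IKO* pools. *Mttp-IKO* pool 3 was nearly as high as control pool 1, so the genotypes overlapped, with a log2 fold change of -0.19 (95% interval -0.67 to 0.29, adjusted p = 0.625, edgeR). Without control pool 2 and *Mttp-IKO* pool 3 together, an alternative chosen after seeing the data, it was -0.53 with an adjusted p of 0.0416. Leaving out single pools gave values from -0.40 (without *Mttp-IKO* pool 3) to -0.07 (without *Mttp-IKO* pool 2), none of which passed.

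*Tgfbr2* (ENSMUSG00000032440), the type II receptor that binds ligand first, stood at 70.4, 50.4 and 61.97 CPM in control and 54.7, 55.0 and 57.1 CPM in *Mttp-IKO* pools. All *Mttp-IKO* pools fell within the range of the control pools. The difference on the log2 scale was -0.13 (95% interval -0.50 to 0.24, adjusted p = 0.662, edgeR), an interval that leaves room for a decrease of up to 0.50 on the log2 scale.

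*Tgfbr3* (ENSMUSG00000029287), which encodes betaglycan, was the 1 gene of the set with a positive fold change. It stood at 43.6, 51.8 and 46.3 CPM in control pools 1, 2 and 3 and at 49.8, 63.4 and 58.9 CPM in pools of *Mttp-IKO* mice, so that only control pool 2 and *Mttp-IKO* pool 1 kept the genotypes from separating. On the log2 scale the difference was 0.28 (95% interval -0.08 to 0.64, adjusted p = 0.322, edgeR).

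*Smad3* (ENSMUSG00000032402), the receptor-activated transducer, was at 34.8, 28.6 and 25.6 CPM in control and 30.3, 19.96 and 26.5 CPM in *Mttp-IKO* pools, with a log2 fold change of -0.21 (95% interval -0.67 to 0.24, adjusted p = 0.558, edgeR). *Smad7* (ENSMUSG00000025880), the inhibitor that the pathway itself raises, was at 44.4, 45.0 and 53.1 CPM in control and 41.9, 39.5 and 54.4 CPM in *Mttp-IKO* pools. Pool 3 was the highest *Smad7* pool of either genotype and the genotypes overlapped. The log2 fold change of *Smad7* was -0.07 (95% interval -0.47 to 0.33, adjusted p = 0.844, edgeR), and its sign turned when the trend with gene length was removed (0.02) or *Mttp-IKO* pool 2 was left out (0.02).

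*Ltbp2* (ENSMUSG00000002020, chromosome 12, 84783212 to 84876532) encodes a microfibril protein of the latent TGF-beta binding protein family that, unlike its relatives, does not bind latent TGF-beta. It was read at 12.5, 6.10 and 10.4 CPM in control pools and at 1.93, 3.02 and 2.39 CPM in *Mttp-IKO* pools. The lowest control pool, pool 2, was above the highest *Mttp-IKO* pool. The difference was -1.98 on the log2 scale (standard error 0.32, 95% interval -2.71 to -1.25, adjusted p = 0.0223, edgeR). The call was lost without control pool 1 (-1.77, adjusted p = 0.0928), control pool 3 (-1.95, adjusted p = 0.0900), *Mttp-IKO* pool 1 (-1.83, adjusted p = 0.0700) or *Mttp-IKO* pool 2 (-2.16, adjusted p = 0.0998), all by edgeR. The antisense gene D030025P21Rik shares 764 exon bases with *Ltbp2*, 9.34% of its exons.

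*Tgfbi* (ENSMUSG00000035493, chromosome 13, 56609603 to 56639339) encodes a secreted protein that binds collagens and integrins and was named for its induction by TGF-beta. It stood at 161, 107 and 156 CPM in control pools and at 73.5, 74.5 and 82.1 CPM in *Mttp-IKO* pools. The genotypes did not overlap, and control pool 2 was again the lowest control pool. This was a log2 fold change of -0.88 (standard error 0.19, 95% interval -1.32 to -0.44, adjusted p = 0.0480, edgeR). With an adjusted p this near to the threshold, the call was lost in settings that included DESeq2's size factors (adjusted p = 0.0506), limma-voom (0.0583) and the gene length trend removed (0.0584). It was also lost without control pool 1 (0.175), control pool 3 (0.184), *Mttp-IKO* pool 1 (0.1004) or *Mttp-IKO* pool 2 (0.169) by edgeR. Its value stayed between -1.11 and -0.75 in these and all other alternatives.

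Compared per length of gene, the order of the levels was led by *Tgfbi* in both genotypes, at 52.7 ± 11.1 RPKM in control and 28.6 ± 1.77 RPKM in *Mttp-IKO* livers. In control livers *Tgfb1* followed (19.2 RPKM), then *Tgfbr2* (12.7), *Smad7* (10.5), *Tgfbr1* (8.19), *Tgfbr3* (7.22), *Smad3* (5.35), *Tgfb3* (1.49), *Ltbp2* (1.18) and *Tgfb2* (0.469). Of these neighbours, *Tgfb1* and *Tgfbr2*, *Tgfbr2* and *Smad7*, *Tgfbr1* and *Tgfbr3*, and *Tgfb3* and *Ltbp2* overlapped in the range of their pools. In *Mttp-IKO* livers the order was *Tgfbr2* (11.6), *Tgfb1* (10.5), *Smad7* (10.01), *Tgfbr3* (8.76), *Tgfbr1* (7.18), *Smad3* (4.61), *Tgfb3* (1.18), *Ltbp2* (0.299) and *Tgfb2* (0.253). Overlap was seen there between *Tgfb1* and *Smad7*, *Smad7* and *Tgfbr3*, *Tgfbr3* and *Tgfbr1*, and *Ltbp2* and *Tgfb2*. *Tgfb1* stood above *Tgfbr2* in 3 of 3 control pools, and *Tgfbr2* stood above *Tgfb1* in 3 of 3 *Mttp-IKO* pools.

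Ligand, receptor and feedback genes were set against each other inside each pool as log2 ratios of read counts, which do not depend on scaling between pools. The ratio of *Smad7* to *Tgfb1* was -0.50, 0.56 and -0.01 in control pools and 0.58, 0.76 and 0.90 in *Mttp-IKO* pools. The groups did not overlap, though control pool 2 lay just below *Mttp-IKO* pool 1. The mean was 0.01 ± 0.53 in control and 0.75 ± 0.16 in *Mttp-IKO* (SD, n = 3 pools), a difference of 0.73 (two-sided exact permutation p = 0.1, the smallest that 3 pools against 3 allow). It was 0.47 without control pool 1 and 1.004 without control pool 2.

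The ratio of *Tgfbr2* to *Tgfb1* was 0.16, 0.72 and 0.21 in control pools and 0.96, 1.24 and 0.97 in *Mttp-IKO* pools. The groups again did not overlap, with a difference of 0.69 (exact permutation p = 0.1). Both ratios share *Tgfb1*, so they are not independent of its lower level or of each other. The log2 fold change was -0.87 for *Tgfb1*, -0.07 for *Smad7* and -0.13 for *Tgfbr2*. For both ratios the Benjamini-Hochberg adjusted p over the 6 ratios computed was 0.3, so no ratio could pass in this design.

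The other 4 ratios overlapped between genotypes. *Smad7* to *Smad3* differed by 0.14 (exact permutation p = 0.7), *Tgfb2* to *Tgfb1* by -0.04 (p = 0.9), *Tgfb3* to *Tgfb1* by 0.39 (p = 0.6) and *Tgfbr3* to *Tgfbr2* by 0.39 (p = 0.2), the last with adjusted p = 0.4 and the others 0.84 to 0.9. Leaving out 1 pool moved the difference of *Tgfb3* to *Tgfb1* between 0.14 (without *Mttp-IKO* pool 3) and 0.74 (without *Mttp-IKO* pool 1), and that of *Tgfbr3* to *Tgfbr2* between 0.23 (without control pool 1) and 0.59 (without control pool 2). *Tgfb3* to *Tgfb1* was also 0.21 without control pool 1, 0.72 without control pool 2 and 0.23 without control pool 3.

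**Figure D3:**
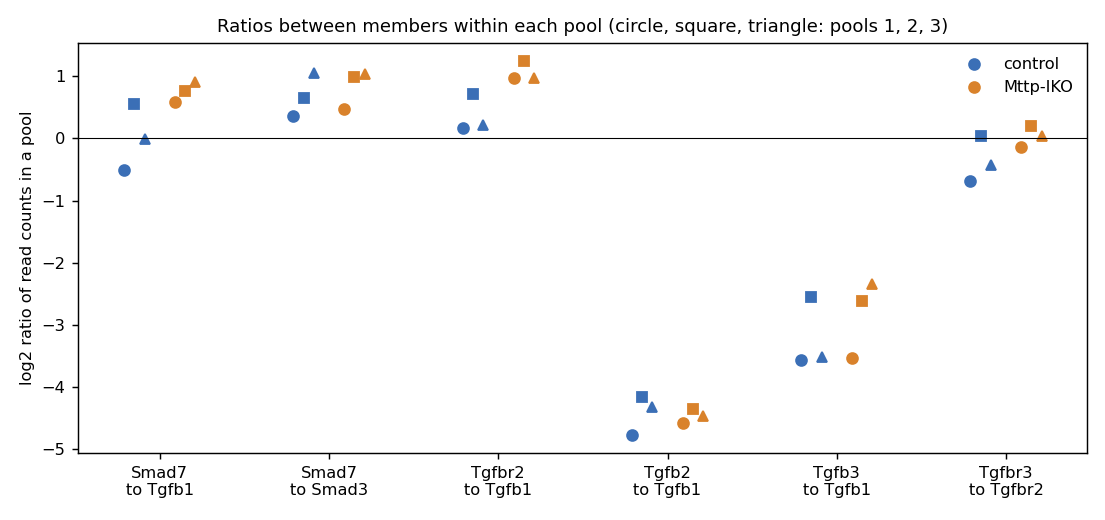
Log2 ratio of read counts of 2 genes inside each pool (vertical axis) for 6 pairs of genes; symbols are pools 1, 2 and 3 and colours are genotypes. The ratios of *Smad7* and of *Tgfbr2* to *Tgfb1* are higher in all *Mttp-IKO* pools than in any control pool, by 0.73 and 0.69 on average, and the other 4 pairs overlap.

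Other genes of the pathway were read from 5 lists written by role, with earlier results of these data known, so their counts are a description. The lists together hold 92 genes beside the 10, 5 of them in more than 1 list. Of these, 88 were tested, 19 fell and 2 rose (edgeR, adjusted p under 0.05), against shares of 3.09% lower and 0.92% higher over all genes tested, and the median log2 fold change was -0.30. The counts fell with some pools left out. Without control pool 1, control pool 3, *Mttp-IKO* pool 1 or *Mttp-IKO* pool 2 only 5, 1, 1 and 0 of these genes passed (29, 28, 36 and 34 had an unadjusted p under 0.05), as the count over all genes went from 694 to 24, 21, 55 and 0. The parts of the pool left out and of the smaller number of pools in this were not tested. All 21 kept their direction in each of the 18 alternatives, as did *Ltbp2* and *Tgfbi*.

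Of 16 genes of ligand latency and activation, 5 fell, 1 rose and 10 did not pass, with a median of -0.68. The latent TGF-beta binding protein genes *Ltbp1*, *Ltbp3* and *Ltbp4*, which tether or anchor latent ligand, all fell. *Ltbp3* was at 25.4 ± 5.26 CPM in control and 8.14 ± 0.55 CPM in *Mttp-IKO* livers (log2 fold change -1.64, adjusted p = 0.0155, edgeR). *Ltbp4* was at 160 ± 10.3 and 79.2 ± 22.5 CPM (-1.01, adjusted p = 0.0478) and *Ltbp1* at 20.2 ± 1.01 and 11.8 ± 0.34 CPM (-0.77, adjusted p = 0.0330), both by edgeR. *Fbn1*, which encodes the microfibril protein fibrillin-1 to which these proteins attach, fell by 1.999 on the log2 scale (adjusted p = 0.0159) and *Itgb5*, an integrin subunit that can take part in ligand activation, by 0.71 (adjusted p = 0.0405, edgeR). *Furin*, the protease that cleaves the ligand precursor, rose by 0.97 (adjusted p = 0.0435, edgeR), from 618 ± 49.1 to 1212 ± 215 CPM. *Plg*, the plasminogen gene of hepatocytes and the most abundant gene of the list per length, was at 410 ± 109 and 748 ± 93.5 RPKM (log2 fold change 0.87, adjusted p = 0.0937, edgeR).

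With *Ltbp2* included, the 4 latent TGF-beta binding protein genes summed to 32.7 ± 2.75 RPKM in control and 15.2 ± 3.60 RPKM in *Mttp-IKO* livers (SD, n = 3 pools), and the lowest control sum, 30.3, was above the highest *Mttp-IKO* sum, 19.0. *Ltbp4* made up 75.7 ± 2.70% of the sum in control and 79.7 ± 3.87% in *Mttp-IKO* livers. *Ltbp2* made up 3.56 ± 0.97% and 2.005 ± 0.48%, so the gene with the lowest log2 fold change of the 4 was also the least abundant in either genotype. The *Ltbp2* share ranged from 2.46 to 4.27% in control and from 1.53 to 2.49% in *Mttp-IKO* pools, a slight overlap.

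**Figure D4:**
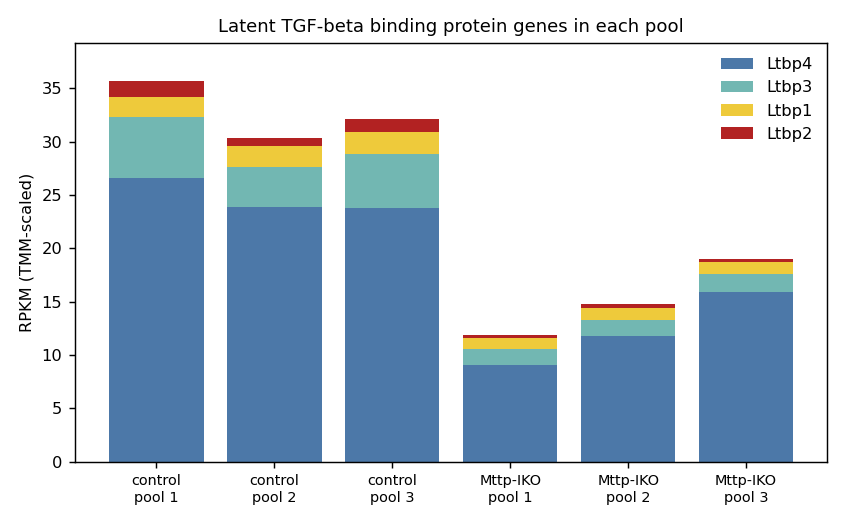
Stacked level of *Ltbp4*, *Ltbp3*, *Ltbp1* and *Ltbp2* in each pool, in TMM-scaled RPKM (vertical axis, from 0). The 3 control pools sum to between 30.3 and 35.7 RPKM and the 3 *Mttp-IKO* pools to between 11.9 and 19.0 RPKM, with *Ltbp4* the largest part of every bar.

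Of 8 co-receptors and soluble antagonists 7 were tested, 3 fell and 4 did not pass, with a median of -0.70. *Bgn*, the small proteoglycan biglycan that binds TGF-beta, was at 296 ± 60.6 CPM in control and 144 ± 18.2 CPM in *Mttp-IKO* livers (log2 fold change -1.04, adjusted p = 0.0384, edgeR). The related *Fmod*, fibromodulin, fell by 1.58 on the log2 scale (adjusted p = 0.0476) and *Acvrl1*, the endothelial type I receptor ALK1, by 0.9995 (adjusted p = 0.0463, edgeR). *Dcn*, decorin, the most abundant of the list per length, was at 125 ± 19.5 and 92.2 ± 16.1 RPKM (-0.44, adjusted p = 0.235), and *Bambi*, a decoy receptor, had a log2 fold change of -0.70 (adjusted p = 0.121, edgeR). The calls were not stable, since limma-voom called 1 gene of the list, edgeR called 1 without *Mttp-IKO* pool 3, and edgeR called 0 without control pool 1, control pool 3, *Mttp-IKO* pool 1 or *Mttp-IKO* pool 2 (4 or 5 at an unadjusted p under 0.05).

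Of 19 genes of the Smad machinery, 1 fell and 18 did not pass, and 16 had positive log2 fold changes, with a median of 0.20. Under total counts as the scaling 11 of the 19 were positive and the median was 0.02. Without *Mttp-IKO* pool 3, 12 of the 19 were positive and the median was 0.07, and without *Mttp-IKO* pool 1 the median was 0.31. The gene that fell was *Pmepa1*, whose product sequesters receptor-activated Smads and which is itself a TGF-beta target, from 11.5 ± 4.64 to 3.06 ± 0.76 CPM (log2 fold change -1.91, adjusted p = 0.0288, edgeR). *Nedd4l*, a ubiquitin ligase of activated Smads, had a log2 fold change of 1.02 (adjusted p = 0.0949), *Smad1* 0.54 (0.166), *Smurf2* 0.44 (0.216) and *Ski* 0.32 (0.245), adjusted p in parentheses by edgeR. *Ppm1a*, a phosphatase acting on Smads and the most abundant of this list per length, was at 33.0 ± 4.27 RPKM in control and 36.1 ± 4.77 RPKM in *Mttp-IKO* livers.

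Of 26 genes known as TGF-beta targets 25 were tested, 11 fell, 1 rose and 13 did not pass, with a median of -0.98. *Col3a1*, *Col1a1* and *Col1a2*, the fibrillar collagens of scar tissue, fell by 3.93, 3.72 and 2.88 on the log2 scale (adjusted p = 0.0111, 0.0159 and 0.0141, edgeR). The *Col3a1* level was 276 ± 140 CPM in control and 18.1 ± 2.62 CPM in *Mttp-IKO* livers. *Tnc*, the matrix protein tenascin C, fell by 3.78 and *Col5a1* by 1.86 (adjusted p = 0.0175 and 0.0181, edgeR). The gene that rose was *Cdkn1a*, the cell cycle inhibitor p21, which other signals also raise, from 35.6 ± 11.4 to 107 ± 12.3 CPM (log2 fold change 1.58, adjusted p = 0.0205, edgeR). *Fn1*, fibronectin, which hepatocytes also secrete and which was the most abundant target per length, had a log2 fold change of 0.60 (adjusted p = 0.158, edgeR), and *Junb*, the next when the means of both genotypes are averaged, though *Bgn* and *Col1a1* exceeded it in control livers, 0.18 (adjusted p = 0.746). *Ccn2*, a matricellular target gene named here after its values were seen, was at 37.6, 16.1 and 25.9 CPM in control pools 1, 2 and 3 and at 20.3, 20.9 and 6.88 CPM in those of *Mttp-IKO* mice. Its pools overlapped, with a log2 fold change of -0.72 (adjusted p = 0.365, edgeR).

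Of 28 genes of the related bone morphogenetic protein and activin arm 26 were tested, and 1 fell, with a median of 0.08. The median was -0.10 under total counts, 0.03 without control pool 1 and -0.04 without *Mttp-IKO* pool 3, where 11 genes were positive in place of 17, 2 fell and 1 rose. The gene that fell with all pools kept was *Inhbe*, the hepatocyte inhibin beta E subunit, at 66.6, 78.1 and 79.0 CPM in control and 36.1, 32.7 and 36.4 CPM in pools of *Mttp-IKO* mice (log2 fold change -1.09, adjusted p = 0.0180, edgeR). *Gdf2*, the ligand BMP9, had a log2 fold change of -0.63 (adjusted p = 0.0920), *Bmp5* -0.50 (0.183), *Acvr2a* 0.54 (0.173) and *Inhba* 1.25 (0.217), adjusted p in parentheses by edgeR. *Hamp* and *Id2*, the most abundant genes of the list per length, had log2 fold changes of 0.19 and 0.22 (adjusted p = 0.801 and 0.577, edgeR).

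**Figure D5:**
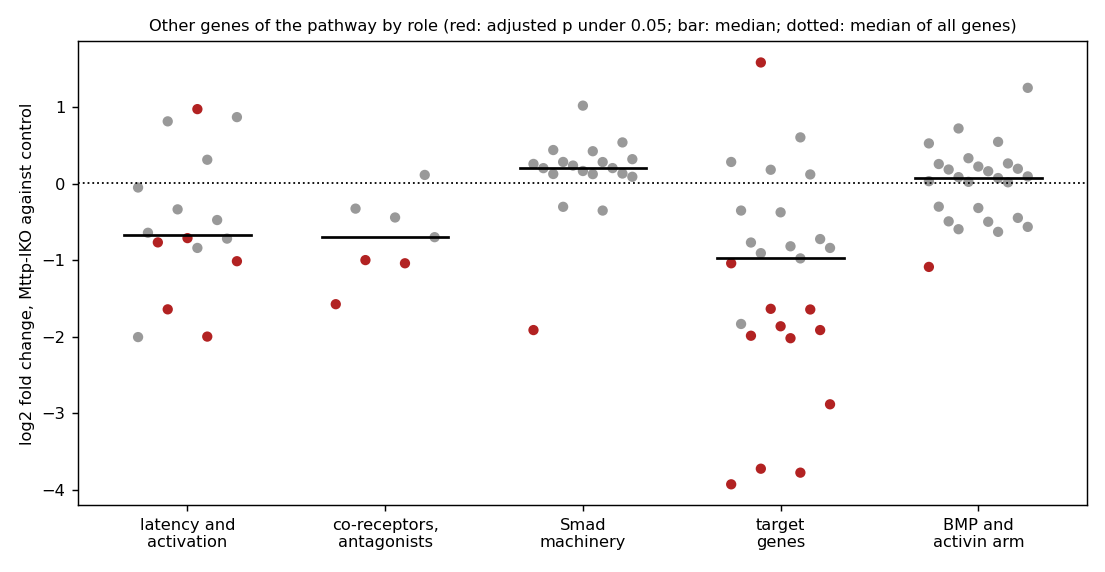
Log2 fold change, *Mttp-IKO* against control, of each tested gene of 5 pathway lists (vertical axis); red points have an adjusted p under 0.05, horizontal bars are list medians and the dotted line is the median of all genes. The medians lie at -0.68, -0.70, 0.20, -0.98 and 0.08 from left to right.

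Some markers of other cell types also fell, and in bulk liver RNA fewer cells of a type and less RNA per cell cannot be told apart. Of 11 stellate cell markers 5 fell and none rose, among them *Lrat*, *Ngfr* and *Colec11* (log2 fold changes -1.71, -2.78 and -1.65, adjusted p = 0.0181, 0.0109 and 0.0174, edgeR), and the list summed to 709 to 839 CPM in control and 476 to 614 CPM in *Mttp-IKO* pools. The stellate marker *Hhip* was on the contrary higher in every *Mttp-IKO* pool than in any control pool without passing (log2 fold change 0.77, adjusted p = 0.0615, edgeR), and *Ecm1* was the other with a positive value (0.04). Most of each stellate sum came from *Reln* and *Ecm1*, neither of them called and both with overlapping pools. *Reln* was at 282 ± 31.8 CPM in control and 208 ± 41.1 CPM in *Mttp-IKO* livers, and *Ecm1* at 199 ± 5.99 and 204 ± 22.3 CPM (SD, n = 3 pools). The lowest stellate sum among controls was that of pool 2, the pool with the most muscle RNA. There the stellate list gene *Des* stood at 68.1 CPM, against 19.1 and 12.5 CPM in control pools 1 and 3. The part of muscle RNA in this sum was not tested. Of 8 recruited macrophage markers 5 fell (*Ccr2*, *Cx3cr1*, *Itgax*, *Ly6c2* and *Trem2*), with sums of 248 to 761 and 73.5 to 146 CPM. Control pool 2 held the lowest of these sums among controls and control pool 3 the highest. Of the 10 TGF-beta genes, 6 were lowest in control pool 2 among controls and 7 were highest in control pool 1. The share of all genes that ranked this way is not given here, so these counts are a description only. Of 9 portal fibroblast and mesothelial markers 2 fell (*Fbln2* and *Mfap4*), with sums of 43.1 to 56.2 and 16.3 to 32.5 CPM. The part of these cell types in the lower levels of *Tgfb1*, *Tgfb2*, *Ltbp2* and *Tgfbi* was not tested.

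Sums of 7 hepatocyte markers ran from 54358 to 87335 CPM in control and from 106464 to 161683 CPM in *Mttp-IKO* pools, with no marker past the threshold. *Alb* alone made up most of each sum. Log2 fold changes were positive for 6 of the 7, whereas *Ttr* was lower in every *Mttp-IKO* pool than in any control pool (log2 fold change -0.55, adjusted p = 0.290, edgeR). Summed endothelial markers overlapped between genotypes, at 407 to 464 and 402 to 454 CPM with none of 7 called. The pools of 2 of these 7 did not overlap, against 31% of all genes tested. Sums of 7 Kupffer cell markers spanned 385 to 588 and 279 to 648 CPM, with a list median of -0.19 and 4 of 7 negative. Of these, *Timd4* was called higher (log2 fold change 1.16, adjusted p = 0.0425, edgeR) and *Adgre1* was at -0.98 without passing (adjusted p = 0.0895, edgeR). No tested marker of cholangiocytes (6 of 7 tested, 56.4 to 68.5 and 46.5 to 77.9 CPM), T and NK cells (5 of 6, 4.63 to 10.4 and 2.47 to 4.77 CPM), B cells (3 of 4, 2.70 to 3.16 and 0.671 to 1.29 CPM), neutrophils (4 of 5, 13.5 to 27.2 and 11.7 to 19.5 CPM), platelets (3 of 5, 6.21 to 9.12 and 5.69 to 9.61 CPM) or striated muscle (3 of 8) passed the threshold. *Ms4a1* of B cells, *Ly6g* of neutrophils, *Cd3d* and *Nkg7* of T and NK cells and the muscle genes *Ckm*, *Mb*, *Myh4*, *Tnnc2* and *Tnnt3* were each without a read in at least 1 pool.

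The genes whose log2 CPM followed each ligand most closely over the 6 pools were listed as a description, since all genes share the libraries and the genotype split. For *Tgfb1* the closest genes were the macrophage lectin *Siglec1*, the leukocyte integrin *Itgal* and *Tenm4* (Pearson's r from 0.997 to 0.9995), and for *Tgfb2* they were *Gm49339*, *Prkcb* and *Pik3cg* (0.990 to 0.998). *Tgfb3* was followed by *Ces1g*, *Gm24407* and *Chpt1* (0.978 to 0.986), and *Smad7* by *Gm26835*, *Pik3cb* and *Gpat3* (0.969 to 0.993). *Ltbp2* and *Tgfbi*, added after their values were seen, were followed by *Ptprs*, *Mvb12b* and *Bgn* (0.996 to 0.998) and by *Myof*, *Fblim1* and *Cmtm3* (0.9992 to 0.9997).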

How the data were processed

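The authors prepared libraries from total liver RNA after depletion of ribosomal RNA and sequenced 3 pools per genotype. Reads were aligned by STAR 2.5.1a to the Ensembl release 76 assembly (GRCm38). For each pool the authors deposited the count of uniquely aligned, unambiguous reads that featureCounts 1.4.6-p5 assigned to each of 41388 genes, and deposited CPM and RPKM columns that follow from those counts. A deposited table with symbols holds 40481 of these genes and 276 repeated lines, which were dropped. Whether counting used the strand is not given in the sources used here.

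Only counts were tested. Genes were kept by filterByExpr (minimum count 10, minimum total 15), scaled by TMM (factors 0.898 to 1.11) and compared by edgeR 4.0.16 (glmQLFit, glmQLFTest, R 4.3.3) with Benjamini-Hochberg adjustment at 0.05, after a check on simulated counts. The article names no tool for this step. Ratios used a pseudocount of 0.5 and exact permutation tests. All 10 genes, up to 5 genes with the smallest p and the 2 most abundant per length of each pathway list, up to 3 per marker list and the 3 closest genes of each ligand and *Smad7* are named, others where a count of 5 or fewer needed names. The genes, lists and rules were chosen with earlier results of these data known.

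Alternatives were other scalings, DESeq2 1.42.0, limma-voom 3.58.1, a robust fit, other filters, protein-coding genes only, a replicate block, removal of the loess trend with gene length (span 0.3), a threshold of 0.1 and leaving out pools. Promoter sequences are from RefSeq, and figures were drawn with matplotlib 3.10.9.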

Additional observations from a re-analysis of the deposited data

How the results depend on the processing

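Of the 10 genes, 2 passed the test, and the count was 1 (*Ltbp2*) with DESeq2's size factors, limma-voom, the replicate block or the length trend removed, 3 with the DESeq2 Wald test, and 0 to 3 when 1 pool was left out (edgeR, with 3 to 6 of the 10 at an unadjusted p under 0.05). Without control pool 2 and *Mttp-IKO* pool 3, chosen after seeing the data, it was 4 (*Ltbp2*, *Tgfbi*, *Tgfb1* and *Tgfbr1*). Same-numbered pools had correlations of 0.139, 0.112 and 0.00698 between their deviations from the genotype means, and each pool except *Mttp-IKO* pool 3 correlated best with its own number, but the numbers were not taken as pairs. With the replicate numbers as a block *Tgfbi* did not pass (adjusted p = 0.0629, edgeR), and 14 of the other pathway genes passed against 21 without it, 30 without control pool 2 and *Mttp-IKO* pool 3, and 0 to 21 when 1 pool was left out. Over all genes 694 passed, against 428 with limma-voom, 1995 with the DESeq2 Wald test, 1658 at an adjusted p of 0.1, 2146 without the 2 pools just named, and 0 to 892 when 1 pool was left out (0 by edgeR without *Mttp-IKO* pool 2, with 3221 at an unadjusted p under 0.05). The share of calls that were lower in *Mttp-IKO* was 77.1%, against 89.0% under total counts (median of all genes shifted by -0.18) and 59.0% with the length trend removed (shifted by 0.11). The *Smad7* log2 fold change turned to 0.0159 with the length trend removed and ran from -0.22 to 0.0195 when 1 pool was left out (0.0195 without *Mttp-IKO* pool 2); it was -0.27 without control pool 2 and *Mttp-IKO* pool 3. Among the ratios, *Smad7* to *Smad3* ran from -0.0224 (without control pool 1) to 0.33 when 1 pool was left out and *Tgfb2* to *Tgfb1* from -0.22 to 0.0835, with 0.0835, 0.00375 and 0.0146 without control pool 2, control pool 3 and *Mttp-IKO* pool 1. The causes of these changes were not tested. With 3 pools against 3, exact tests of the ratios cannot give a p below 0.1. *Tgfb2* rested on 31 to 93 reads a pool, the fewest of the 10 genes.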
